A study of Mus musculus with 7 samples.

Results

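The 10 tetraspanin genes described here are Cd9, Cd37, Cd53, Cd63, Cd81, Cd82, Cd151, Tspan13, Tspan14 and Tspan31, taken by symbol from a table of 54347 mouse gene identifiers. All 10 were found once each and all 10 were among the 15372 genes with enough counts to be tested. The cells were long-term haematopoietic stem cells (LT-HSCs), which can rebuild the blood system over the long term, sorted from the bone marrow of female mice of the line C57BL/6N-EMCN em1(IMPC)Wtsi /WtsiH. There were 4 libraries of Emcn+/+ mice (WT) and 3 of Emcn-/- littermates (KO), each of 1 mouse and of 3000 to 5000 cells. The Emcn genotype is the only labelled difference between the groups, and the labels used here give no age. Endomucin, the product of Emcn, is a mucin-like glycoprotein of the plasma membrane, and the study compared stem cells with and without it.

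Tetraspanins are small proteins that cross the membrane 4 times and hold partner proteins such as integrins, immunoglobulin-family proteins and the protease ADAM10 in patches of the membrane. They do not usually act as receptors themselves but set where their partners sit, how these move and how they are taken up. In blood cells CD9, CD63 and CD81 are also widely used marks of extracellular vesicles, CD37 and CD53 are known mainly from leukocytes, and CD82 (KAI1) is known for keeping long-term stem cells in quiescence.

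Promoter sequences of 5 of the genes are shown. Cd53, Cd37 and Cd82 had the largest ratios of highest to lowest library of the 10, each with its highest value in the library wt_284. For Cd37 and Cd82 the ratio rested on that library, and without it neither was larger than that of Cd81 or Tspan13. Cd81 and Tspan13 are shown for their higher mean levels. They are RefSeq sequences of GRCm38.p6, 140 bases each, 5′ to 3′ on the gene's strand. Capitals mark GAGGAAGT (or its reverse complement ACTTCCTC), a form of the site bound by ETS factors such as PU.1, in the first 3, and GGGCGG, the GC box bound by Sp1-type factors, in the last 2. The marking does not separate the genes, since the Cd37 stretch also holds GGGCGG, left in lower case. It lies 53 to 48 bases before the start of transcription. Each of Cd53, Cd37, Cd81 and Tspan13 runs from 120 bases before to 20 bases after the start of transcription. Cd82 has 4 annotated starts, and its stretch runs from 250 to 111 bases before the third. Near its first and second starts, which are not shown, Cd82 also has GGGCGG.
Cd53 (chr3:106790130-106790269, minus strand): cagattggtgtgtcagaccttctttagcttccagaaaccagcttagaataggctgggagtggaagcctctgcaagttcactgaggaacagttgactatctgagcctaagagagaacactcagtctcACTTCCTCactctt
Cd37 (chr7:45238820-45238959, minus strand): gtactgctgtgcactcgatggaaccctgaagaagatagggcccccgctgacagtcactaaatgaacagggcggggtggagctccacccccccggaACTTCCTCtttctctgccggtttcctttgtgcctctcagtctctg
Cd82 (chr2:93461962-93462101, minus strand): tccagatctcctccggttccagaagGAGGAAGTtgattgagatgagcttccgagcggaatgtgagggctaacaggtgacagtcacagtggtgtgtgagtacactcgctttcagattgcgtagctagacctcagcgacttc
Cd81 (chr7:143052630-143052769, plus strand): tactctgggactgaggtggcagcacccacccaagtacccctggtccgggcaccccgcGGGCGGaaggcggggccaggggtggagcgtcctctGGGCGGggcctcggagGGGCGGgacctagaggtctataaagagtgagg
Tspan13 (chr12:36042459-36042598, minus strand): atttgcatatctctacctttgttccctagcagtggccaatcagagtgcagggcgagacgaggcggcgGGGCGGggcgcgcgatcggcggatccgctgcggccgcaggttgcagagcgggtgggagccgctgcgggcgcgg

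Over windows of 300 bases (250 before to 50 after a start), all 10 genes had at least 1 window and 15 windows in all. GAGGAAGT was present on either strand in a window of 4 of the 10 genes, namely Cd53, Cd37, the third start of Cd82 and the second start of Tspan14. Of 27025 genes with a window, 3.69% held it in any window. In Cd53 it lay 7 to 14 bases after the start and in Cd37 25 to 18 bases before it. GGGCGG was present in a window of 7 of the 10 genes, against 38.2% of all genes, and Cd53, Cd63 and Tspan31 had none. Both shares are of all genes with a window, with or without counts here, and no share was taken over genes with counts alone. The 27025 genes had 32851 windows, so most had fewer windows for each gene than these 10. The first window of Tspan14 had 33 CpG dinucleotides, that of Tspan13 had 26 and that of Cd81 had 23, whereas the Cd53 window had 4 and the median of all windows was 7. The letters were chosen after the sequences were seen, and a match describes the letters only.

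Across the series, library totals ran from 6444134 to 11101774 counts, and Emcn had 130 to 327 counts in WT and 0 or 1 in KO (adjusted p = 1.1e-04 in edgeR's quasi-likelihood test). Emcn was the only one of 15372 genes with an adjusted p under 0.05, that is 0.00651% of genes. All 12 markers of LT-HSCs looked at, among them Kit, Procr, Hlf and Mecom, had counts in every library. The library wt_284 stood apart. Its 18 myeloid markers summed to 15320 CPM (counts relative to the TMM-adjusted library total), against 262.6 to 1337 CPM for the remaining 3 WT mice and 218.7 to 718 CPM for KO mice, while its LT-HSC markers summed to 1759 CPM, against 2578 to 2920 in the other 6 libraries.

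The tetraspanins were ranked by their level per length, which is the CPM divided by the kilobases of exon of the gene. Of 17077 protein-coding genes with any count, Tspan13 stood at place 1047 (the top 6.13%), Cd81 at 1297, Tspan14 at 1399, Cd9 at 1793 and Cd63 at 2355. Cd82 followed at 3312, Cd53 at 3403, Cd37 at 3939, Tspan31 at 4941 and Cd151 at 6249 (the top 36.6%). The place of Cd53 rested on the library wt_284, since without it Cd53 stood at 5913 (the top 34.6%), below Tspan31 at 4873. The median of the 10 genes lay in the top 16.6%. For comparison, the stem cell gene Hlf stood at place 456 and Slamf1, which encodes the sort antigen CD150, at 5334. All 10 genes had counts in every library, so no library lacked any of these transcripts at this depth.

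**Figure D1:**
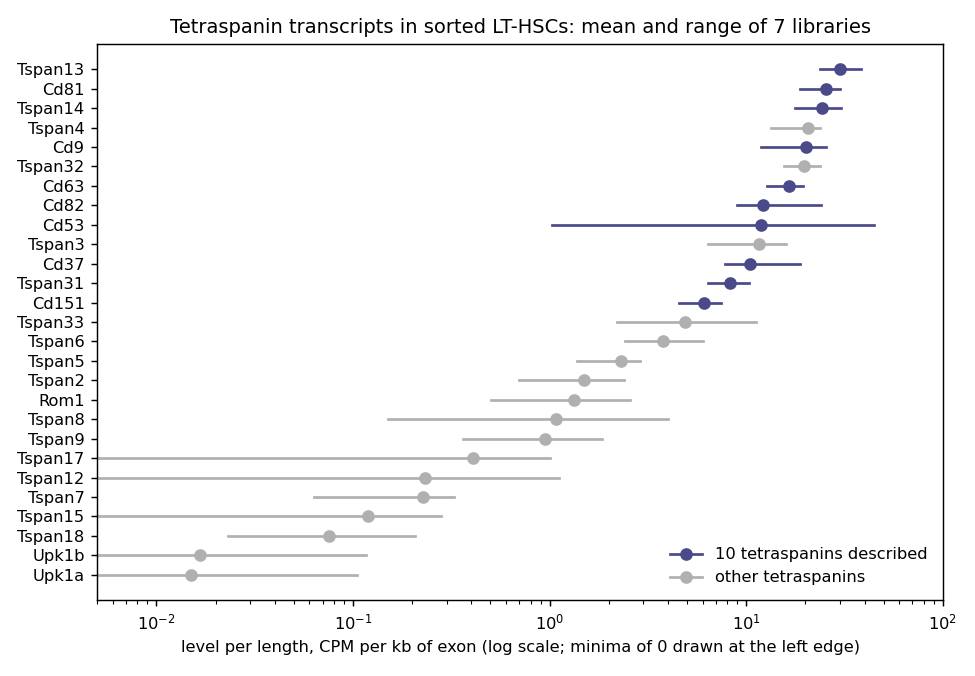
Level per length (CPM per kb of exon, log axis) of each tetraspanin gene with any count; points are the mean of 7 libraries and lines run from the lowest to the highest library. Of the 13 genes with the highest means, 10 are those described here (dark) and the others are Tspan4, Tspan32 and Tspan3 (grey); Cd53 has the longest line among the dark genes.

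Tspan13, a tetraspanin with few described partners, had 29.9 ± 5.6 CPM per kb (SD over the 7 libraries), and Cd81, a partner of integrins in leukocytes, had 25.6 ± 3.6. Tspan14, which escorts ADAM10 to the cell surface, had 24.3 ± 4.2 on the same scale, and Cd9 had 20.1 ± 4.7. These leading genes were close. Tspan13 was above Cd81 in 5 of 7 libraries, Cd81 above Tspan14 in 4, Tspan14 above Cd9 in 6 and Cd9 above Cd63 in 5. The order among them also rests on the length used, since with the longest transcript as length Cd81 led and Tspan13 came second.

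Cd63, the tetraspanin of lysosomes and late endosomes, had 16.4 ± 2.4 CPM per kb and was above Cd82 in 6 of 7 libraries. Cd82 (12.3 ± 5.3), Cd53 (11.96 ± 14.9) and Cd37 (10.4 ± 3.8) could not be put in a stable order. Cd82 was above Cd53 in 5 of 7 libraries, and Cd53 was above Cd37 in only 3 of 7 despite its higher mean. Tspan31 (8.26 ± 1.33) was above Cd151 (6.13 ± 0.96), a partner of laminin-binding integrins, in 7 of 7 libraries, the only neighbours of the 10 whose order was the same in every library. Their ranges over libraries still overlapped, as did those of every other pair of neighbours.

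Of the exon bases of Tspan31, 29.2% are shared with Cdk4, a cell cycle kinase gene on the opposite strand that had 5740 counts over the 7 libraries against 1061 for Tspan31. The sources used here do not say whether the counting used strand, so the level of Tspan31 is uncertain. For Cd9, Cd37, Cd81 and Cd151 the exon bases shared with genes on the opposite strand made up at most 10.7%, and those genes had fewer counts than the tetraspanin itself.

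The other 21 tetraspanin genes in the mouse table were mostly low. Together the 10 genes made up 70.6% of the summed level per length of all 31, and from 65.2% in ko_320 to 78.0% in wt_284. Tspan4 (20.7 CPM per kb), Tspan32 (19.6), a haematopoietic tetraspanin also called TSSC6, and Tspan3 (11.6) lay within the range of the 10, and Tspan33 (4.90) came next below Cd151. Tspan1, Tspan10, Tspan11 and Prph2 had no count in any library, which allows up to 3 counts in each.

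None of the 10 tetraspanins differed between KO and WT at an adjusted p under 0.05 in edgeR, where 0.00651% of all tested genes did. None did in DESeq2, which called 0.0772% of genes, or in edgeR with no filter on low counts, which called 0.272%. None had an unadjusted p under 0.05, against 3.27% of tested genes, and for none did all KO libraries lie on one side of all WT libraries, against 4.86%. The log2 fold changes (KO minus WT) were positive for 5 and negative for 5, with a median of -0.06, and the median of all tested genes was -0.02. This even split rested on single mice, with 2 positive and 8 negative without wt_312, 3 and 7 without wt_290 or without ko_314, and 6 and 4 without wt_284 or without ko_320. For 8 of the 10 the 95% interval lay within 2-fold in either direction, which was so for 76.5% of tested genes with a mean of at least 10 CPM. Cd53 and Cd82 were the exceptions. Because these are bulk samples, fewer cells of a type and less RNA per cell cannot be told apart in any of these values.

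**Figure D2:**
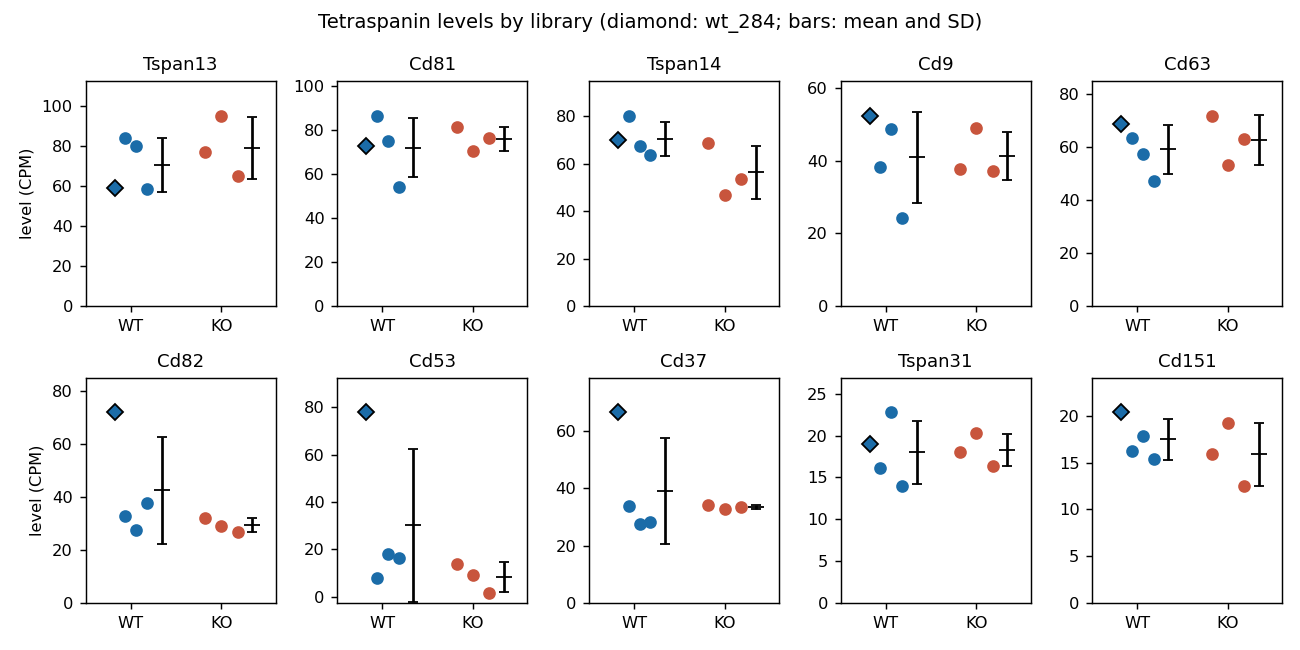
Level (CPM, linear axis) of each of the 10 tetraspanins in 4 WT (blue) and 3 KO (red) libraries; points are libraries, the diamond is wt_284, and black marks give the mean and SD. WT and KO points overlap in every panel, and the diamond lies apart from the other WT points for Cd82, Cd53 and Cd37.

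The markers of extracellular vesicles, Cd63, Cd81 and Cd9, had nearly the same means in both genotypes. Cd81 stood at 72.7, 86.7, 74.9 and 53.9 CPM in the WT libraries (wt_284, wt_290, wt_310, wt_312), and at 81.4, 70.4 and 76.3 CPM in KO (ko_306, ko_314, ko_320). All KO values lay inside the WT range. Its log2 fold change was 0.08 ± 0.18 (SE), with a 95% interval from -0.32 to 0.48 (adjusted p = 0.992). 

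Cd63 stood at 68.4, 63.4, 57.2 and 47.0 CPM in WT (in the same order of mice, here and below) and at 71.7, 53.1 and 62.9 CPM in KO. The highest value was in ko_306 and the lowest in wt_312, so the groups overlapped. The log2 fold change of Cd63 was 0.09 (-0.33 to 0.50). Cd9, which is also a gene of megakaryocyte-biased progenitors, stood at 52.4, 38.3, 48.6 and 24.3 CPM in WT and at 37.8, 48.9 and 37.2 in KO. Here too wt_312 was lowest and the KO values lay inside the WT range, and the log2 fold change was 0.01 (-0.55 to 0.58).

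Tspan14 is tied to a membrane protease and Cd151 to adhesion. Tspan14 stood at 69.8, 80.3, 67.4 and 63.7 CPM in WT and at 68.6, 46.8 and 53.4 CPM in KO. The KO libraries ko_314 and ko_320 were below all WT libraries, and ko_306 was above wt_310 and wt_312. The log2 fold change was -0.32 ± 0.19 (SE), from -0.72 to 0.08, with an adjusted p of 0.992, and without wt_284 it was again -0.32. Cd151 stood at 15.4 to 20.4 CPM in WT and 12.5 to 19.2 CPM in KO, with a log2 fold change of -0.14 (-0.76 to 0.48).

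Tspan13 and Tspan31 did not separate the genotypes. Tspan13 stood at 58.7, 83.6, 79.9 and 58.4 CPM in WT and at 76.6, 94.99 and 64.7 CPM in KO, so ko_314 was highest and the other KO libraries lay inside the WT range. Its log2 fold change was 0.17 (-0.27 to 0.60). Tspan31 stood at 14.0 to 22.8 CPM in WT and 16.4 to 20.3 CPM in KO, and its log2 fold change was 0.02 (-0.58 to 0.63).

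**Figure D3:**
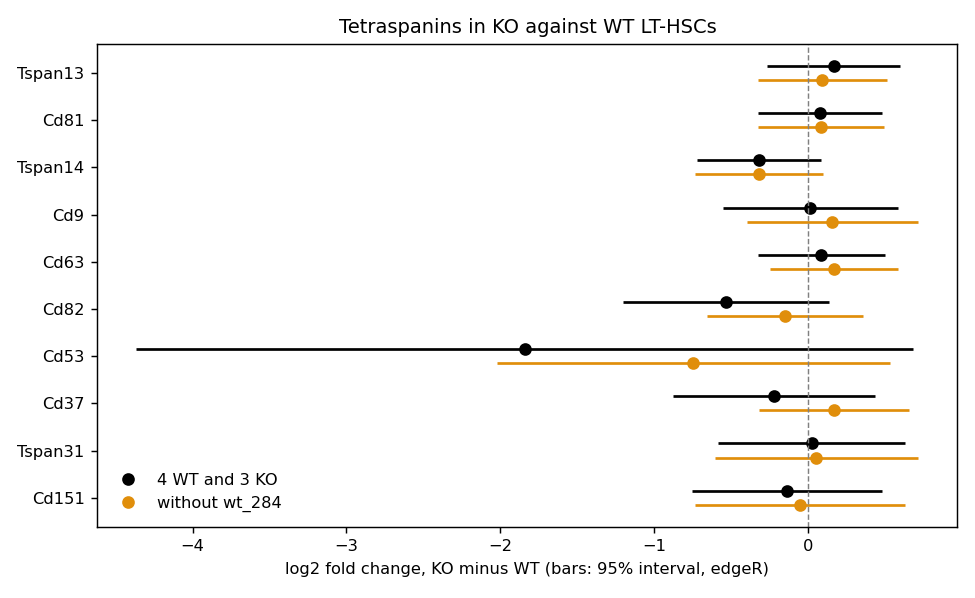
Log2 fold change (KO minus WT) of the 10 tetraspanins with 95% intervals from edgeR, with all 7 libraries (black) and without wt_284 (orange). Every interval includes 0, and the estimates of Cd53, Cd82 and Cd37 move most when wt_284 is left out.

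Cd82 had the lowest unadjusted p of the 10 in edgeR (0.108), next to 0.109 for Tspan14, whose estimate did not rest on wt_284. The difference in Cd82 rested largely on that 1 library. Its WT values were 71.9 CPM in wt_284 and then 32.8, 27.5 and 37.6, and its KO values were 32.1, 28.9 and 26.9 CPM. The KO library ko_320 was lowest of all, and wt_310 was lower than ko_306 and ko_314. The mean over the 4 WT libraries was 42.5 ± 20.1 CPM (SD), and over the 3 KO libraries it was 29.3 ± 2.6 CPM (SD). The log2 fold change was -0.53 ± 0.31 (SE), from -1.20 to 0.14 (adjusted p = 0.992), and it was -0.15 (-0.66 to 0.36) without wt_284, where the WT mean was 32.6 CPM.

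Cd37, a leukocyte tetraspanin known mainly from B cells, stood at 66.5 CPM in wt_284 and at 33.9, 27.5 and 28.4 CPM in the remaining WT mice. In KO it stood at 34.4, 32.8 and 33.5 CPM, a narrow band that lay above wt_310 and wt_312. The log2 fold change of -0.22 (-0.88 to 0.43) turned to 0.17 (-0.32 to 0.66) without wt_284.

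Cd53, a pan-leukocyte tetraspanin, was the most variable of the 10. Its level was 78.2 CPM in wt_284 and then 7.93, 18.0 and 16.6 CPM in WT, and 14.0, 9.25 and 1.78 CPM in KO. The library wt_284 was far above the rest and ko_320 far below, and the remaining libraries of both genotypes overlapped. The highest library was 43.9 times the lowest, against at most 2.68 times for the other 9 genes and a median of 1.83 over tested genes of at least 10 CPM. Its place in the ranking per length ran from 717 in wt_284 to 10617 in ko_320. The log2 fold change was -1.84 ± 1.04 (SE), from -4.36 to 0.68 (adjusted p = 0.992), and -0.75 (-2.02 to 0.53) without wt_284. As a fold, the interval with all 7 libraries ran from 0.0485 to 1.61.

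Of the 10 tetraspanins 5 (Cd9, Cd37, Cd53, Cd82 and Cd151) were highest of all libraries in wt_284, where 23.1% of tested genes were. Cd53 was 5.51 times the mean of the other WT libraries there, Cd37 2.22 times and Cd82 2.20 times. Of tested genes 2.32%, 8.54% and 8.65% had a larger ratio. Tspan13 went the other way, at 0.793 times. Cd81 and Tspan14 were at 1.01 and 0.991 times, next to a median of 0.991 over all tested genes.

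**Figure D4:**
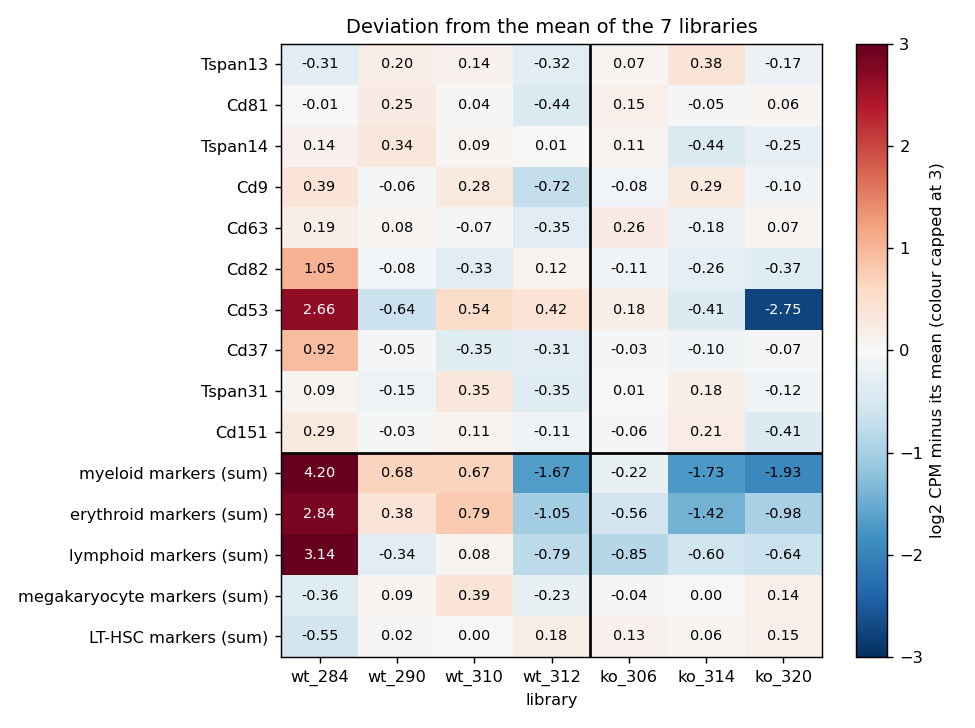
Deviation of log2 CPM from the mean of the 7 libraries for each of the 10 tetraspanins (above the line) and for the summed CPM of marker lists (below it); red is above and blue below the mean. In wt_284 Cd53 deviates by 2.66, Cd82 by 1.05 and Cd37 by 0.92, in the same library in which the myeloid sum deviates by 4.20 and the LT-HSC sum by -0.55.

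Markers of other marrow cells were also highest in wt_284, and their part in the tetraspanin values was not tested. All 18 myeloid markers had counts there, and wt_312 lacked 2 of them, ko_314 lacked 4 and ko_320 lacked 3. The myeloid list summed to 4563 ± 7189 CPM in WT and 397 ± 279 CPM in KO. The 11 erythroid markers found summed to 2574 CPM in wt_284, to 174 to 622 CPM in the remaining WT mice and to 135 to 244.5 CPM in KO mice. The 12 lymphoid markers summed to 229 CPM in wt_284, to 15.0 to 27.4 CPM in the remaining WT mice and to 14.4 to 17.2 CPM in KO mice, and 8 of them, among them Cd79a and Pax5, were at 0 in wt_312 and in ko_314. Megakaryocyte markers (319.8 to 537 CPM in WT and 399.5 to 453 CPM in KO) and endothelial and stromal markers, a list that includes Emcn (157.5 to 212.5 CPM in WT and 167 to 176 CPM in KO), were lowest in wt_284. In wt_290, wt_310 and wt_312 the myeloid sum was 1337, 1333 and 263 CPM, beside Cd53 at 7.93, 18.0 and 16.6 CPM. In ko_306, ko_314 and ko_320 it was 718, 253 and 219 CPM, beside Cd53 at 14.0, 9.25 and 1.78 CPM. Of the KO libraries ko_320 was lowest in both. Of the WT libraries other than wt_284, wt_290 had, by little, the highest myeloid sum and also the lowest Cd53.

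The tested genes of at least 10 CPM with profiles most like that of Cd82 were Ets2, an ETS transcription factor, Niban1, a stress-linked protein of translation control, and Zfp516, a zinc finger factor. After centring on their own means, their log2 CPM differed from that of Cd82 by a root mean square of 0.08, 0.09 and 0.11 over the 7 libraries. Ets2 stood at 74.7 CPM in wt_284, between 29.5 and 36.99 CPM in the remaining WT mice and between 27.6 and 31.8 CPM in KO mice. Of the other 9 tetraspanins Cd37 was nearest to Cd82, at 0.21. For Cd53 the nearest were Plaur, the urokinase receptor, at 0.42, Dgat1, an enzyme of triglyceride synthesis, at 0.45 and Gpc1, a glypican, at 0.51. Plaur stood at 106 CPM in wt_284, between 11.1 and 14.6 CPM in the remaining WT mice and between 2.04 and 11.8 CPM in KO mice. All 9896 genes compared share the same 7 libraries. The genes nearest to Cd82 share its high value in wt_284, and those nearest to Cd53 share both its high value in wt_284 and its low value in ko_320. Because these genes were picked by nearness over the same 7 libraries, this sharing follows from the choice.

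Of the 21 other tetraspanins 12 were tested, and 0 passed at an adjusted p under 0.05, 5 with positive and 7 with negative log2 fold changes and a median of -0.30. That median lay between -0.10 and -0.02 when wt_284, wt_290, wt_310, ko_314 or ko_320 was left out, over 10 to 12 tested. It was further from 0 without wt_312 (-0.38) and without ko_306 (-0.43). Tspan4 had 0.12 (-0.36 to 0.59), Tspan32 had 0.08 (-0.28 to 0.44) and Tspan3 had 0.25 (-0.31 to 0.81). Tspan33, which like Tspan14 escorts ADAM10 and is known from erythroid cells, had the lowest unadjusted p of the family. It stood at 58.2, 17.9, 35.0 and 21.5 CPM in WT and at 11.5, 17.8 and 16.4 CPM in KO. All KO values were below all WT values, by little between wt_290 and ko_314. Its log2 fold change was -1.12 ± 0.40 (SE), unadjusted p = 0.0149 and adjusted p = 0.992 in edgeR, and -0.70 (-1.41 to 0.0049) without wt_284. All 11 erythroid markers had negative log2 fold changes too, against 52.4% of tested genes, with a median of -2.50. Without wt_284 their median was -1.25, with 10 negative and 1 positive. In 2 of the 11, Hbb-bt and Epor, all KO values were below all WT values. Of all tested genes 4.86% did not overlap, in either direction. The 17 myeloid markers tested were also all negative, with a median of -3.93, and in 3 of them the groups did not overlap. None of these markers passed at an adjusted p under 0.05 in edgeR with all 7 libraries and the filter on low counts. Of 18 myeloid markers 1 passed as lower in DESeq2, which called 0.0772% of genes. In edgeR with no filter, which called 0.272%, 2 of the 18 did. With mice numbered above 300 alone 1 of 16 did, beside 4 higher and 3 lower of all 15753 genes. No erythroid marker passed in these alternatives. The part of the markers in the Tspan33 values was not tested.

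Of 30 listed partners and regulators of tetraspanins 27 were tested, and 0 passed, with 8 positive and 19 negative log2 fold changes and a median of -0.10. Leaving out 1 mouse moved that median from -0.21 (without ko_306) to -0.0152 (without ko_320), and it was also moved to -0.17 without wt_312 and to -0.066 without wt_284. The negative share was 70.4%, beside 52.4% of all tested genes. Leaving out 1 mouse moved that share from 59.3% (without wt_310 or without ko_314) to 74.1% (without ko_306). It was 69.2% without wt_284 and 55.6% for mice numbered above 300. At an unadjusted p under 0.05 there was 1 of the 27, against 3.27% of tested genes. It was Cd36, a fatty acid and lipoprotein receptor, at 25.6 CPM in wt_284, 2.75 to 3.98 CPM in the remaining WT mice and 1.40 to 2.98 CPM in KO, so the groups overlapped. Its log2 fold change was -2.05 (-3.89 to -0.22), with an unadjusted p of 0.0315 and an adjusted p of 0.992 in edgeR, and -0.65 (-2.45 to 1.15) without wt_284. The integrin subunit genes Itga4 (-0.17, from -0.50 to 0.16), Itga6 (0.07, from -0.32 to 0.46) and Itgb1 (0.09, from -0.21 to 0.38) lay close to 0. So did Adam10, the protease that Tspan14 escorts, at -0.13 (-0.48 to 0.22), and Kit, whose protein is known to associate with tetraspanins, at 0.13 (-0.24 to 0.51). Igsf8, which encodes the CD9 and CD81 partner EWI-2, had -0.0035 (-0.76 to 0.75). Sdcbp, which encodes syntenin, an adaptor of CD63, had -0.21 (-0.56 to 0.13). Ifitm3, an antiviral membrane protein that binds CD81, had -0.10 (-0.50 to 0.29). Per length Ifitm3 (136 CPM per kb), Kit (74.8), Itgb1 (56.3) and Adam10 (46.7) had higher mean levels than any tetraspanin.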

How the data were processed

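RNA of LT-HSCs sorted from 7 mice was made into libraries with a strand-specific total RNA kit, per the labels' protocols. The authors deposited estimated counts for each gene, whole and unscaled. Trimming with cutadapt and quantification with Salmon are listed, with no version, per the submitters' processing notes. GENCODE M21 (GRCm38) gave exon lengths, with 99.5% of identifiers matched.

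KO was compared with WT by the robust quasi-likelihood test of edgeR 4.0.16 (R 4.3.3), after filterByExpr and TMM normalization, with p-values adjusted by Benjamini-Hochberg over 15372 genes and a threshold of 0.05. Level per length divides CPM by the union of exons, and log2 profiles used a prior count of 0.5. Genes named were the 10 members, the 4 highest other tetraspanins that were tested, 8 fixed partners, Emcn and the 3 genes nearest to Cd82 and to Cd53. Hlf, Slamf1 and the marker lists are given as references, and Cd36, Ptgfrn, Hbb-bt and Epor were chosen after their values were seen. Alternatives were DESeq2 1.42.0, limma-voom (3.58.1) with quality weights, 2 other normalizations, 2 other filters, a fit that is not robust, mice numbered above 300, a threshold of 0.1, leaving out each mouse, and, for ranks, another length and gene set.

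The members and lists were chosen with earlier results of these data known. Totals of 6444134 to 11101774 counts limit precision, and the limit for a count of 0 covers counting error only.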

Additional observations from a re-analysis of the deposited data

Results flagged for a closer look

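In each of 11 genes (the 10 tetraspanins and Emcn) the highest and lowest of the 4 WT libraries were compared with the others. Chance passes this check in about 1 in 20 groups if the values are normally distributed. The library wt_284 stood far from the other WT libraries for Cd53, at 78.2 CPM against 7.93 to 18.0, and for Cd37, at 66.5 CPM against 27.5 to 33.9. The gap was 0.856 of the WT range for Cd53 and 0.836 for Cd37, both above the 95% critical value of Dixon's test for 4 samples. These gaps are in CPM, and the flags depend on that scale. On log2 CPM, where the check was not run, a gap above the other values is a smaller part of the range. There wt_284 deviated by 2.66 for Cd53, against -0.64 to 0.54 in the other WT libraries, and by 0.92 for Cd37, against -0.35 to -0.05.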

How the results depend on the processing

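None of the 10 tetraspanins, and none of the other tetraspanins and partners tested, passed the threshold under any of the 16 alternatives, including DESeq2 (which called 0.0772% of genes) and edgeR with no filter (0.272%). At an unadjusted p under 0.05 there was 1 of the 10 in 4 alternatives, namely Cd82 in edgeR with no filter (beside 1779 of all 29739 genes) and without wt_310 (495 of 15209), Cd53 in the fit that is not robust (655 of 15372) and Tspan14 without ko_306 (911 of 16189). Emcn passed in 14 of 15 alternatives; limma-voom with quality weights, which called 0 genes, gave -8.32 (adjusted p = 0.991). Cd53, Cd82, Tspan14 and Tspan13 kept their sign in all 15 alternatives, from -2.47 to -0.73, -0.69 to -0.15, -0.51 to -0.19 and 0.02 to 0.31. Leaving out 1 mouse gave log2 fold changes from -0.15 to 0.16 for Cd9 (negative without wt_290, wt_312 or ko_314), -0.35 to 0.17 for Cd37 (positive without wt_284), -0.043 to 0.21 for Cd63 (negative without ko_306), -0.023 to 0.17 for Cd81 (negative without wt_312), -0.28 to 0.027 for Cd151 (positive without ko_320), -0.063 to 0.15 for Tspan31 (negative without wt_290, wt_312 or ko_314) and -0.16 to 0.070 for the median of the 10 (positive without wt_284 or ko_320). Mice numbered above 300 alone gave 0.27 for Cd37, -0.0038 for Tspan31 and 0.091 for the median, and limma-voom gave -0.030 for Cd81; the cause was not tested. The median place of the 10 was the top 11.1% when genes of every biotype were ranked, a set of 29661 genes, and from 15.5% to 18.2% when 1 mouse was left out. No paired analysis was possible because no number is shared by mice of the 2 genotypes and no litter is labelled.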

Other observations

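Several tetraspanin genes lie next to each other in GRCm38. Cd151 and Tspan4 are 3.77 kb apart on chromosome 7, Cd81 and Tspan32 are 33.1 kb apart on the same chromosome, and Cd82 and Tspan18 are 84.6 kb apart on chromosome 2. The neighbours of the first 2 pairs were both well covered, with 989 counts of Cd151 and 2652 of Tspan4, and 4444 of Cd81 and 7268 of Tspan32, over the 7 libraries. The third pair was unequal, with 2191 counts of Cd82 and 37 of Tspan18.

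Ptgfrn, which encodes the CD9 and CD81 partner EWI-F, was the 1 partner of 27 tested in which the groups did not overlap, beside 4.86% of all tested genes. It was low, at 0.257 to 1.13 CPM in WT and 1.21, 1.49 and 7.00 CPM in KO, with a log2 fold change of 1.96 (-0.13 to 4.05) and an adjusted p of 0.992 in edgeR. It was named after its values were seen.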
